A study of Homo sapiens with 4 samples.

Results

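The genes described here are 46 genes of the Wnt pathway, listed by name with earlier results of these data known. They are ligands and the proteins that secrete them, receptors, inhibitors, intracellular transducers, and feedback or liver target genes. Of these, 42 had a probe set assigned to that gene alone in the array annotation, out of 19775 genes on the array, while WNT3, PORCN, FZD8 and TCF7 were not analysed here. Expression was measured in PLC8024, a human hepatocellular carcinoma line, after flow cytometry had sorted its cells into a CD133+ and a CD133- population. CD133 is a surface glycoprotein used to enrich tumour-initiating cells from liver cancers. Each population has 1 column of RMA log2 values and 1 of MAS5 linear intensities. The labels name no treatment of the cells, and both populations come from this 1 line, whose sort purity and number of cultures are not stated in the labels.

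Wnt ligands are lipid-modified by PORCN, carried to the surface by WLS and bind Frizzled receptors together with LRP5 or LRP6. Binding stops the AXIN, APC and GSK3B complex from marking beta-catenin for destruction, and beta-catenin then activates genes with TCF and LEF factors. Several of those genes, among them AXIN2, NKD1, NOTUM, RNF43, ZNRF3 and DKK1, encode proteins that dampen the signal again. In the liver the pathway patterns the lobule, with GLUL expressed around the central vein, and CTNNB1 and AXIN1 are recurrently mutated in hepatocellular carcinoma.

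Each population had 1 value per processing and no replicate, so the small number of arrays limits the precision of all values, and no test was run. Each gene is represented by whichever of its probe sets was brightest on average in RMA, and its difference is CD133+ minus CD133- in RMA, on the log2 scale. Genes count as above the floor if their higher RMA value is at or over its own column's median, which was 5.16 in CD133+ and 5.14 in CD133-. A gene was counted when it was above the floor and at least 2-fold higher or lower in both RMA and MAS5. No source used here says if both processings of a population began with 1 scan, so a gene passing in both is not a replicated result. The yardstick for technical scatter was the gap between the RMA differences of the first and second probe sets of a gene, which had an SD of 0.35 over 6170 genes. It is the spread of a gap between 2 differences, not of 1 difference alone, and it leaves out variation between sorts, cultures and arrays.

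The sorted marker itself was 19.9-fold higher in RMA, with PROM1 at 10.35 in CD133+ and 6.04 in CD133-. The hepatocyte markers SERPINA1, FGG, FGB, FGA, TF and APOB were at RMA values above 12 in both populations, and all 10 analysed of 12 listed were above the floor. Their summed MAS5 intensity was 218114 in CD133+ and 214430 in CD133-, although ALB and APOA1 had RMA differences of -3.42 and -1.80. Leukocyte markers summed to 10457 in CD133+ and 4187 in CD133-, of which LYZ, also a secreted enzyme of other cells, gave 10257 and 4008, while CD3E and ITGAM were above the floor and PTPRC and CD14 below it. Endothelial markers summed to 366.4 in CD133+ and 1002 in CD133-, of which PECAM1 gave 268.0 and 912.9, and the other 5 were below the floor. Fibroblast and stellate markers summed to 952.2 in CD133+ and 555.7 in CD133-, with COL1A1 at 594.9 and 430.1, DCN and ACTA2 also above the floor, and COL1A2, COL3A1, LUM and PDGFRB below it. Erythroid markers summed to 210.1 in CD133+ and 173.7 in CD133-, with HBB and ALAS2 both above the floor. The part of these marker differences in the Wnt values was not tested.

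Of the 42 genes, 1 was counted as higher in CD133+ and none as lower. The counted gene was DKK1, which encodes a secreted antagonist that binds LRP5 and LRP6. Of the 42, 29 were above the floor, so 1 of 29 was 3.45%, beside 3.34% of the 13116 genes above the floor over the whole array. In single directions the array-wide shares were 2.25% higher and 1.09% lower. The median difference of the 29 was -0.05, beside 0.00 over all genes above the floor, and 11 were above 0, 17 below 0 and 1 at 0. Over all 13116 genes above the floor, 6319 were above 0 and 6548 below 0. Of the 29, 21 differed by less than the probe set SD of 0.35, which is 72.4%, beside 72.7% of all genes above the floor. SFRP2 reached the floor in CD133+ alone and WNT2B in CD133- alone, and 27 were above it in both populations. In whole populations, fewer cells with a transcript and less transcript per cell cannot be told apart.

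The stretch upstream of DKK1 is shown because DKK1 was the counted gene, and that of FZD5 because FZD5 had the lowest difference of the 42 genes. Each is the 250 bases before the annotated start, read 5′ to 3′ along the gene from RefSeq's table for GRCh38.p14. The DKK1 stretch is chr10:52314031-52314280 on the plus strand and the FZD5 stretch is chr2:207769907-207770156 on the minus strand. Capitals mark matches to the TCF and LEF core motif, CTTTG followed by 2 bases that are each A or T, searched on both strands.
DKK1: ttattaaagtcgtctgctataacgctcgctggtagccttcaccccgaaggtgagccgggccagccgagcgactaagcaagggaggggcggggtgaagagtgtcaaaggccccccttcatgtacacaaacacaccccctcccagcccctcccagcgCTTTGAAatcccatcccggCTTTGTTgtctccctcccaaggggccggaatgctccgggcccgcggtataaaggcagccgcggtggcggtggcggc
FZD5: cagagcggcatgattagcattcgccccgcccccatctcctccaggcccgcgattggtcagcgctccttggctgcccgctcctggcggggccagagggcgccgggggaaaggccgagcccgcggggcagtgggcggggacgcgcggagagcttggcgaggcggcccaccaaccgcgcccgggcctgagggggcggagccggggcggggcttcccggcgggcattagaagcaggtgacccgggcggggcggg

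The DKK1 stretch held 2 such matches, CTTTGAA from 95 to 89 bases and CTTTGTT from 76 to 70 bases before the start, which do not overlap each other. At least 1 match was found in 11.96% of all 35116 windows of this length in the table and at least 2 in 1.21%. The table had windows for 26 of the 42 genes, 37 windows in all, and the other match among them was CTTTGTT in 1 window of TCF7L2. CTTTGTT is also a sequence that SOX factors can bind. The DKK1 stretch also held TATAAA between 40 and 16 bases before the start, as did 2.29% of all windows. The FZD5 stretch held neither the TCF and LEF letters nor TATAAA there, and its content of G and C was 76.8%, beside 62.8% in the DKK1 stretch. A match is a run of letters and not a measured binding site.

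DKK1 had an RMA value of 9.49 in CD133+ and 7.63 in CD133-. Its MAS5 intensities were 2888 in CD133+ and 855.2 in CD133-. The gene was therefore 3.64-fold higher in RMA and 3.38-fold higher in MAS5. Its difference of 1.86 was reached or passed in the same direction by 102 genes above the floor, DKK1 included. The array has 1 probe set for DKK1, so no second probe set could be set beside it.

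The remaining inhibitors were close between the populations or near and below the floor. DKK3, a divergent family member whose action on Wnt signalling depends on the cell, had RMA values of 8.15 in CD133+ against 8.27 in CD133-. Its 4 probe sets above the floor differed by -0.17 to 0.23, on both sides of 0. KREMEN1, a receptor that takes LRP6 off the surface together with DKK1, had 5.90 in CD133+ and 5.38 in CD133-, with MAS5 intensities of 312.1 and 188.7. Its second probe set above the floor had a difference of -0.15, so the RMA difference of 0.52 of the first was not repeated there. The MAS5 log2 ratio of that second probe set was 0.49, from low intensities of 19.0 in CD133+ and 13.5 in CD133-. DKK4, another secreted LRP6 antagonist, was below the floor at 4.74 in CD133+ and 4.92 in CD133-.

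The secreted Frizzled-related proteins and WIF1, which bind Wnt ligands outside the cell, gave little signal. SFRP2 had RMA values of 5.21 in CD133+ against 4.85 in CD133-, and its MAS5 intensities of 10.2 and 3.27 were far below the column medians of 86.0 and 86.1. SFRP1, SFRP4, SFRP5, FRZB and WIF1 were below the floor in both populations, with RMA differences from 0.04 for SFRP4 to 0.45 for WIF1. SFRP1, at 5.16 in CD133+ and 4.82 in CD133-, was under it by less than the second decimal shows. The MAS5 intensities of SFRP5 were 29.8 in CD133+ and 4.64 in CD133-, a log2 ratio of 2.68 that its RMA difference of 0.21 did not repeat. The 4 inhibitors above the floor differed by 1.86 for DKK1, 0.52 for KREMEN1, 0.36 for SFRP2 and -0.12 for DKK3, a median of 0.44, and SFRP2 passed the floor through its higher CD133+ value alone.

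**Figure D1:**
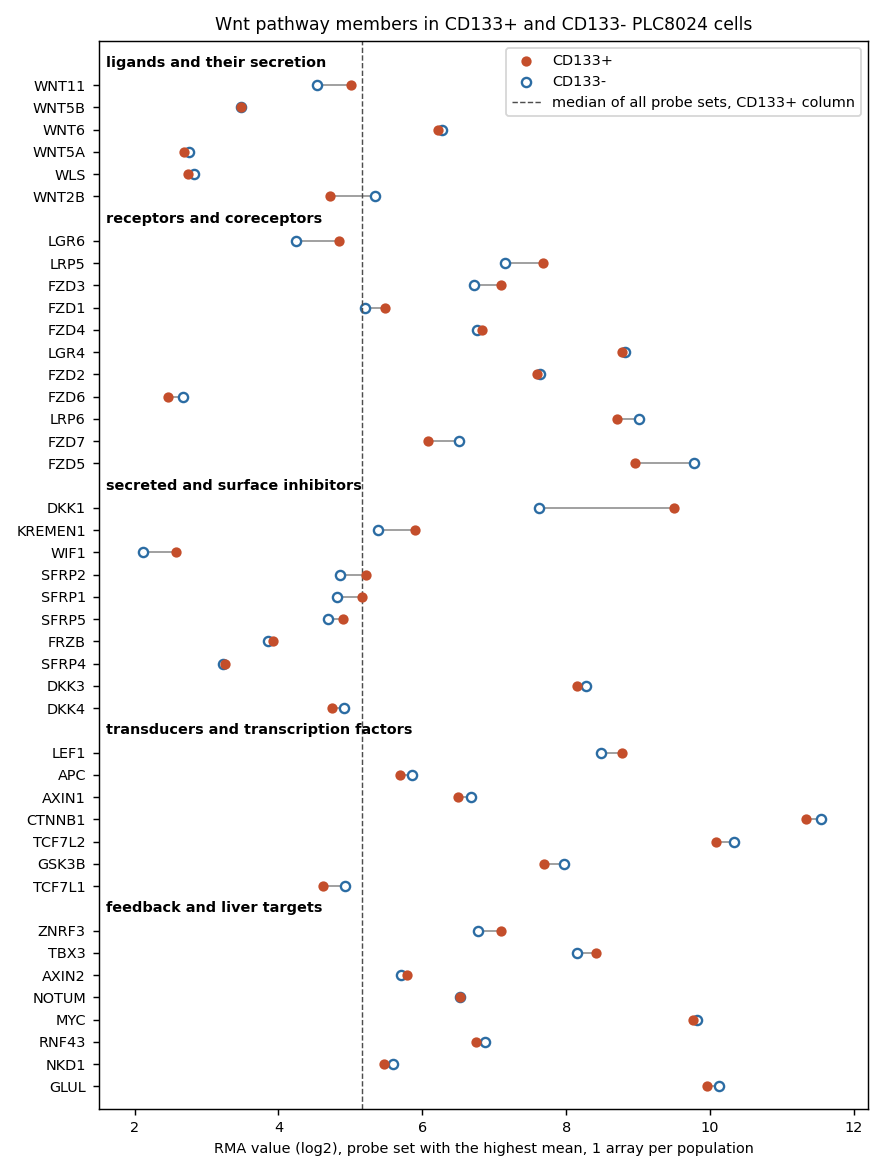
RMA values (log2, horizontal axis) of the 42 Wnt pathway genes in CD133+ (filled circles) and CD133- (open circles), 1 array each, grouped by role and ordered by difference; the dashed line is the CD133+ column median of 5.16. The widest gap is that of DKK1, at 9.49 in CD133+ and 7.63 in CD133-, and most other pairs nearly coincide; different probe sets have different brightness, so positions are compared within a gene and not between genes.

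Among the receptors FZD5 had the lowest difference and LRP5 the highest of those above the floor. FZD5, a Frizzled receptor that can signal through beta-catenin, had RMA values of 8.96 in CD133+ against 9.78 in CD133-, and MAS5 intensities of 2180 and 3757. Its second probe set had 6.29 in CD133+ and 7.10 in CD133-, so both differed by almost the same amount, -0.82 and -0.81, and both MAS5 log2 ratios were on the same side at -0.78 and -0.98. The gene missed the 2-fold rule in both processings, being 1.76-fold lower by RMA and 1.72-fold by MAS5. Differences as low as that of FZD5 or lower were held by 295 genes above the floor.

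FZD7, a Frizzled receptor studied in liver cancer, had differences on the same side of 0. Its probe sets had RMA values of 6.08 and 5.88 in CD133+ and 6.51 and 6.62 in CD133-, which are differences of -0.43 and -0.75. LRP6, the coreceptor that DKK1 binds, had 8.70 in CD133+ and 9.01 in CD133-, and its 3 probe sets differed by -0.58 to -0.11. Its paralogue LRP5 had 7.68 in CD133+ and 7.15 in CD133-, while its other probe set, below the floor, differed by 0.12. The chosen probe sets of the paired coreceptors thus differed in opposite directions, by 0.54 for LRP5 and -0.31 for LRP6, and that of LRP6 was within the probe set SD.

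The other Frizzled genes above the floor had smaller differences or probe sets that went both ways. FZD3 had RMA values of 7.10 in CD133+ against 6.72 in CD133-, and its 3 probe sets above the floor differed by 0.08 to 0.37. FZD1 had 5.48 in CD133+ and 5.20 in CD133-, but its MAS5 intensities were 156.5 and 161.9. Its other probe sets, below the floor, differed by -0.61 and -0.07. FZD2 and FZD4 differed by -0.04 and 0.06. The second FZD2 probe set, above the floor, differed by 0.14, and the second of FZD4, below it, by -0.42. FZD6 was below the floor at 2.46 in CD133+ and 2.68 in CD133-.

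LGR4, a receptor for R-spondins, which keep Frizzled receptors on the surface, had RMA values of 8.78 in CD133+ against 8.82 in CD133-. LGR6, of the same family, was below the floor at 4.84 in CD133+ and 4.24 in CD133-, with MAS5 intensities of 64.0 and 22.9. The 9 receptors above the floor had a median difference of -0.04, with 4 above and 5 below 0.

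Wnt ligands and their carrier gave signals near or below the floor. WNT6 was above it in both populations, at 6.22 in CD133+ and 6.27 in CD133-. WNT2B, a canonical ligand, had 4.71 in CD133+ and 5.34 in CD133-, and MAS5 intensities of 70.3 and 115.4. All 4 WNT2B probe sets had differences below 0, from -0.62 to -0.13, and the other 3 were below the floor. WNT5A, WNT5B and WNT11, ligands best known for beta-catenin-independent signalling, were below the floor, at 2.68, 3.48 and 5.02 in CD133+ and 2.75, 3.48 and 4.54 in CD133-.

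WLS, which carries Wnt proteins to the cell surface, had 3 probe sets, all below the floor. The chosen one had RMA values of 2.74 in CD133+ against 2.83 in CD133-, and MAS5 intensities of 5.43 and 11.2. A probe set below the floor shows that its signal was low, and does not show that the transcript was absent.

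The intracellular transducers were close between the populations in RMA. The chosen probe sets of all 6 above the floor differed by less than 0.35, as did 72.7% of all genes above the floor. CTNNB1, which encodes beta-catenin, had RMA values of 11.34 in CD133+ against 11.54 in CD133-, and its 3 probe sets differed by -0.36 to -0.11. The scaffold APC differed by -0.16, the scaffold AXIN1 by -0.19 and the kinase GSK3B by -0.28, and APC and GSK3B had other probe sets above the floor on the opposite side, at 0.54 and 0.34. In MAS5 the intensities of AXIN1 were 189.7 in CD133+ and 289.4 in CD133-, a log2 ratio of -0.61. The median MAS5 log2 ratio of the 6 was -0.09.

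TCF7L2, a TCF factor expressed in liver and gut, had RMA values of 10.08 in CD133+ against 10.33 in CD133-, and its 7 probe sets, all above the floor, differed by -0.34 to 0.12. LEF1, a factor that is itself a Wnt target, had 8.78 in CD133+ and 8.48 in CD133-, and its 3 probe sets differed by 0.11 to 0.30, all above 0. TCF7L1, often a repressor, was below the floor at 4.61 in CD133+ and 4.93 in CD133-. The median of the 6 above the floor was -0.20, and LEF1 alone was above 0.

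**Figure D2:**
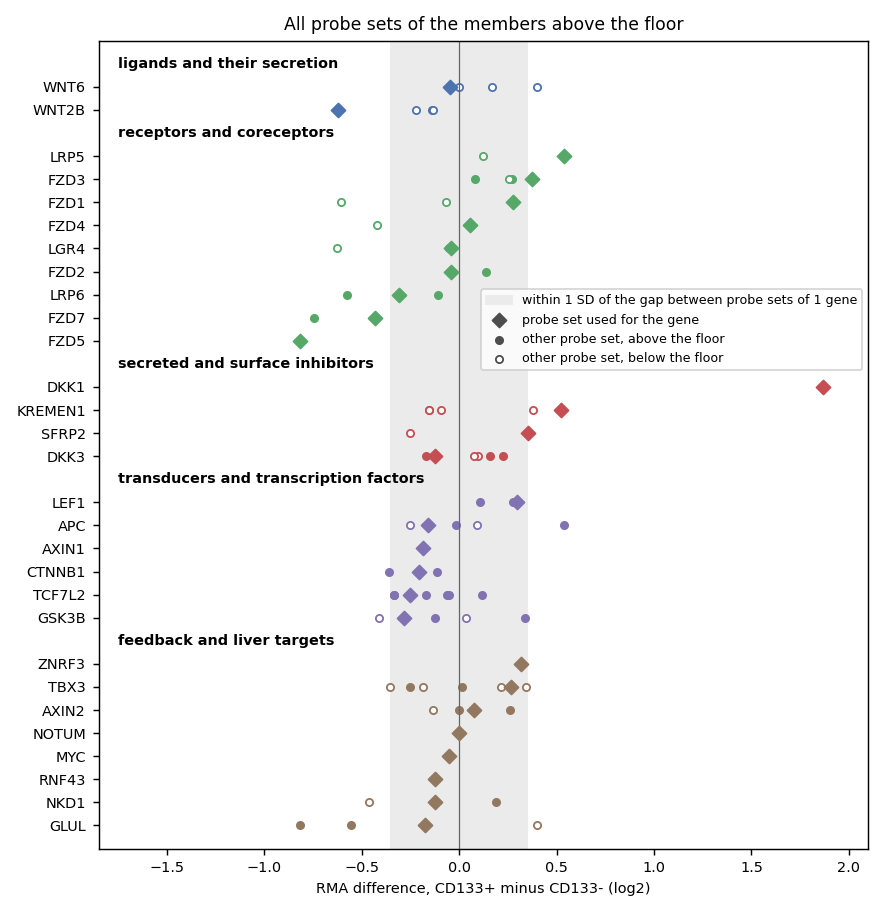
RMA difference (CD133+ minus CD133-, log2, horizontal axis) of every probe set of the 29 Wnt pathway genes above the floor; diamonds are the probe sets used for the gene, dots other probe sets above the floor and open circles those below it, and the grey band spans 0.35 on either side of 0. DKK1 at 1.86 lies far to the right with 1 probe set, the FZD5 probe sets coincide near -0.82, and GLUL runs from -0.81 to 0.40.

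The negative feedback targets, which follow beta-catenin activity in many tissues, were all above the floor, and none was counted. Over the whole array 3.34% of genes above the floor were counted, a share at which so few genes can hold none. AXIN2, the most used of these readouts, had RMA values of 5.79 in CD133+ against 5.71 in CD133-. Its 3 probe sets above the floor differed by 0.00 to 0.26, while their MAS5 log2 ratios were -1.09, -0.18 and 2.31. The MAS5 intensities of the chosen one were 63.5 in CD133+, under the column median of 86.0, and 134.7 in CD133-. RNF43, a ligase that removes Frizzled receptors, differed by -0.12, and ZNRF3, its paralogue, had 7.09 in CD133+ and 6.77 in CD133-.

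NOTUM, a secreted enzyme that strips the lipid from Wnt ligands, had the same RMA value, 6.52, in CD133+ and CD133-. An RMA difference of exactly 0 was held by 249 genes above the floor. NKD1, an inhibitor of Dishevelled, had RMA values of 5.47 in CD133+ against 5.59 in CD133- and MAS5 intensities of 23.3 and 51.8, which lie under the column medians. Its second probe set above the floor had a difference of 0.19, on the other side of 0.

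MYC, a growth-promoting transcription factor and Wnt target, had 9.76 in CD133+ and 9.82 in CD133-, with MAS5 intensities of 3377 and 3351. TBX3, a transcription factor that is a Wnt target in liver tumours, had 8.42 in CD133+ and 8.16 in CD133-, and its probe sets above the floor differed by -0.25 to 0.26. The MAS5 intensities of TBX3 were 1037 in CD133+ and 582.9 in CD133-, a log2 ratio of 0.83, so its MAS5 ratio was 1.78-fold while its RMA difference was within the probe set SD. The MAS5 log2 ratios of its other probe sets above the floor were 0.65 and -0.37.

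GLUL, which encodes glutamine synthetase and marks beta-catenin activity in liver, had 9.96 in CD133+ and 10.13 in CD133-. Its other probe sets above the floor had RMA values of 8.28 and 8.41 in CD133+ and 9.10 and 8.96 in CD133-, which are differences of -0.81 and -0.55. All 3 were below 0, while the fourth, below the floor, had 0.40, and the one used for the gene had the smallest difference at -0.17. The 8 target genes had a median of -0.03. The chosen probe sets of all 8 differed by less than 0.35, beside 72.7% of all genes above the floor.

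**Figure D3:**
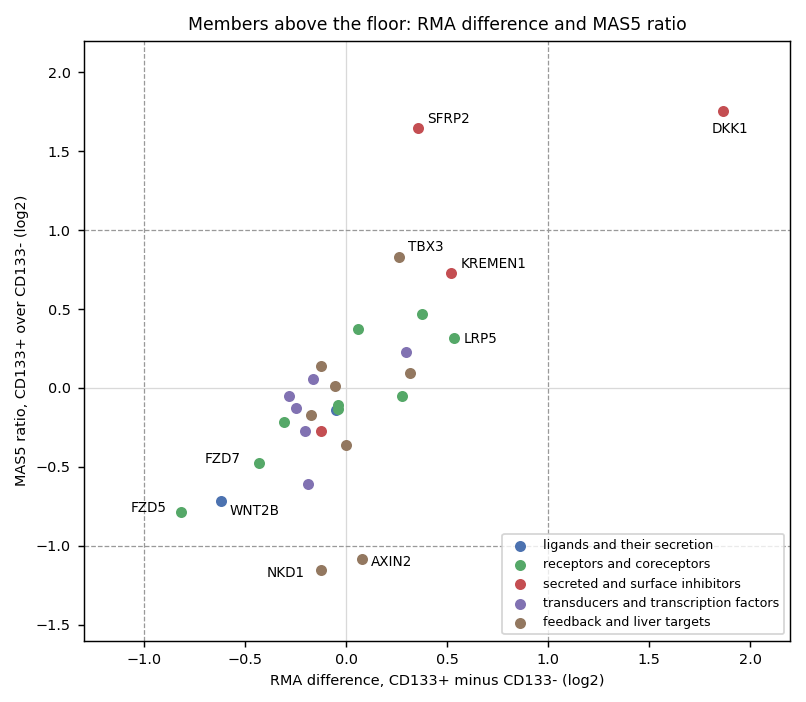
RMA difference (log2, horizontal axis) against the MAS5 ratio (log2, vertical axis), both CD133+ relative to CD133-, of the 29 Wnt pathway genes above the floor, coloured by role; dashed lines mark 2-fold. DKK1 alone passes 2-fold in both, at 1.86 and 1.76, while SFRP2 passes it upwards and AXIN2 and NKD1 downwards in MAS5 alone.

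RMA and MAS5 gave opposite signs for 5 of the 29 genes, FZD1, APC, AXIN2, RNF43 and MYC, which is 17.2%, beside 20.3% of all genes above the floor. At a lower bar of 1.5-fold in both processings, DKK1 was higher and FZD5 and WNT2B were lower. These 3 of 29 are 10.3%, beside 9.49% of all genes above the floor, with 5.32% higher and 4.17% lower.

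Of 97 other Wnt pathway genes, also listed with earlier results of these data known, 95 were analysed and 68 were above the floor. Of these 68, 3 were counted as higher in CD133+ and none as lower, which is 4.41%, beside the array-wide 3.34% in either direction and 2.25% higher. The median difference of the 68 was 0.00. RSPO3, an R-spondin that strengthens Wnt signals and is made by central vein endothelium in mouse liver, had RMA values of 5.24 in CD133+ against 3.79 in CD133-, and MAS5 intensities of 133.6 and 59.3. KREMEN2, the other DKK1-binding Kremen receptor, had 8.18 in CD133+ and 7.09 in CD133-, and MAS5 intensities of 392.1 and 23.3. It was 2.13-fold higher in RMA and 16.8-fold in MAS5, where its CD133- intensity lay under the column median of 86.1. BMP4, a growth factor of the TGF-beta family listed as a Wnt target, had 8.18 in CD133+ and 7.17 in CD133-. RSPO3, KREMEN2 and BMP4 each have 1 probe set, and the CD133- value of RSPO3 was below the floor. RSPO3 was not counted with a MAS5 pseudocount of 50 or with the floor at the 75th percentile.

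SP5, a direct beta-catenin target, had RMA values of 5.86 in CD133+ against 5.16 in CD133-, and MAS5 intensities of 201.0 and 11.4. It was 1.62-fold higher in RMA and 17.6-fold in MAS5. Its CD133- values were close to the RMA floor of 5.14 and under the MAS5 column median of 86.1. The 12 further targets above the floor had a median of 0.39, with 9 above and 3 below 0, and hold BMP4. Of all 13116 genes above the floor, 6319 were above 0 and 6548 below 0. TLE3, a corepressor of TCF factors, had 6.89 in CD133+ and 6.24 in CD133-, and its 4 probe sets above the floor differed by 0.12 to 1.24. EP300, a histone acetyltransferase, differed by 0.22.

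Among other transducers 11 of 14 were below 0, with a median of -0.22, beside 6548 of all 13116 genes above the floor below 0. FRAT2, a GSK3-binding protein, had 8.65 in CD133+ and 9.24 in CD133-. FBXW11, a ubiquitin ligase subunit that recognises beta-catenin, had 8.72 in CD133+ and 9.28 in CD133-, and its second probe set had a difference of -1.31 in RMA and -0.65 in MAS5.

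Of the planar polarity genes, SCRIB and VANGL1 had differences of -0.65 and -0.51, and the group's median was 0.02. The tyrosine kinase-like receptors ROR1 and PTK7 differed by 0.54 and 0.25, WNT10A by -0.50, and DACT2, which acts on Dishevelled, by 0.23. ROR1 reached the floor in CD133+ alone, and its other probe sets, below the floor, differed by 0.18 and 0.07. The MAS5 log2 ratios of PTK7 and WNT10A were on the other side of 0, at -0.14 and 0.27. WNT10A had MAS5 intensities of 7.66 in CD133+ and 6.37 in CD133-. Its other probe set, below the floor, differed by 0.49.

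**Figure D4:**
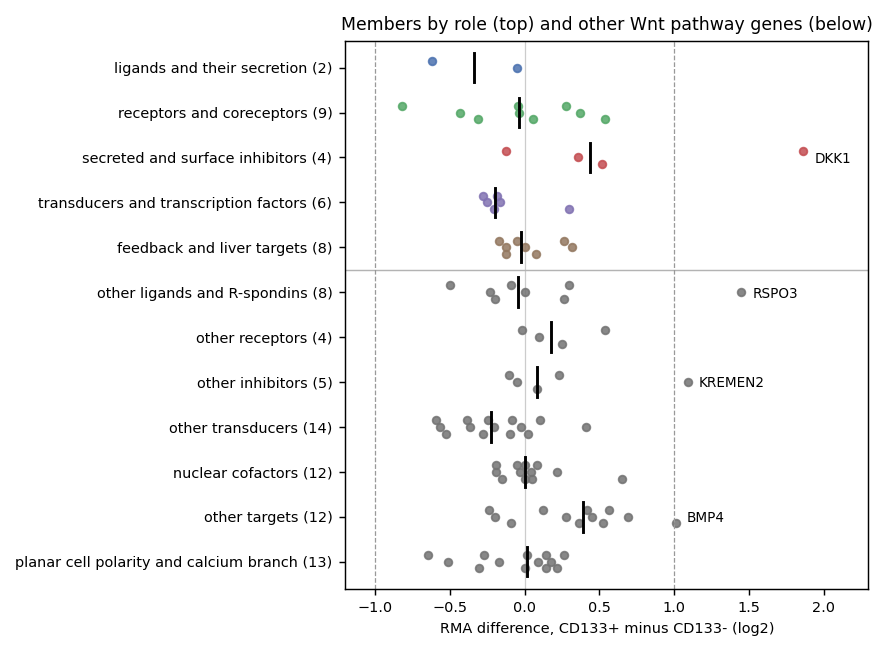
RMA difference (CD133+ minus CD133-, log2, horizontal axis) of genes above the floor, the described Wnt genes by role above the line and other Wnt pathway genes below it; points are genes, black bars medians, dashed lines 2-fold in RMA, and the number above the floor is in parentheses. The named points DKK1, RSPO3, KREMEN2 and BMP4, at 1.86, 1.45, 1.09 and 1.01, are the genes counted as higher in CD133+.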

How the data were processed

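The authors deposited MAS5 output as linear intensity values and RMA output as log2 values, per the labels, each for 1 CD133+ and 1 CD133- population. The submitters' processing notes name GCOS, MAS5 and RMA. Versions and the set of arrays normalized together were not given in the sources used here. RMA and MAS5 columns were treated as 2 processings and never as replicates, since the sources used here do not say whether they come from the same arrays. The gap between log2 MAS5 ratios of probe sets of 1 gene had an SD of 0.79, against 0.35 for RMA differences. Without replicates, which measure is the more precise was not tested. Detection calls were not used here, and the column median served as floor.

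Each column held 54675 probe sets, of which 41097 had 1 gene, 1801 several and 11777 none or were not listed in GEO's platform annotation. Symbols were updated through the gene ID in a RefSeq table of GRCh38.p14 for 41043 probe sets. Differences, medians and counts were computed with Python 3.11.15 and pandas 2.3.3. The count rule was run on simulated data whose changes were well above the 2-fold bar. That run does not show how the rule treats genes near 2-fold. The genes named were all 46 of the list, PROM1, the counted other Wnt pathway genes and the markers. From each group of the other Wnt pathway genes, the 2 with the largest absolute difference above the floor were also named. WNT8B, FZD9, LGR5, SLC1A2, SOX4 and CCND1 were named after their values were seen. The members and lists were chosen with earlier results of these data known. Alternatives were RMA or MAS5 alone, a MAS5 pseudocount of 50, no floor or one at the 75th percentile, other probe set choices, 1.5-fold and median centring.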

Additional observations from a re-analysis of the deposited data

How the results depend on the processing

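DKK1 was counted as higher under all 9 other settings run, with differences from 1.70 with a MAS5 pseudocount of 50 to 1.86. Most of these settings could not have changed its count. RMA alone, MAS5 alone, no floor and 1.5-fold are looser than the rule used. DKK1 has 1 probe set, so other probe set choices left it as it was, and median centring left it at 1.86. All settings reuse the same 1 column per population and processing. In MAS5 alone 2 of the Wnt genes were higher (DKK1 and SFRP2) and 2 lower (AXIN2 and NKD1), and at 1.5-fold 2 were lower (FZD5 and WNT2B). AXIN2 was 0.08 in RMA, on the other side of 0 from its MAS5 ratio of -1.09, as were the other Wnt genes WNT8B (0.27 in RMA, -1.08 in MAS5) and FZD9 (-0.01 and 2.15). Of the other Wnt pathway genes 7 were higher and 3 lower in MAS5 alone, 5 higher and 1 lower with the pseudocount, and 5 higher and 2 lower at 1.5-fold. Over all genes above the floor, 1004 were higher and 735 lower in MAS5 alone, 546 and 313 with the pseudocount and 698 and 547 at 1.5-fold, against 295 and 143 in the rule used. The inhibitors' median of 0.44 was 1.18 in MAS5 alone and 0.87 with the floor at the 75th percentile, where DKK1 and DKK3 were its members above the floor. The ligands had no member above that stricter floor. RSPO3 was not counted with that floor or with the pseudocount, and RSPO3 and BMP4, whose probe sets end in _s_at, could not be given without those probe sets. The chosen GLUL value of -0.17 was -0.55 as the median over its probe sets above the floor and 0.40, on the other side of 0, without _x_at and _s_at ones. Without those, DKK3 was 0.23 in place of -0.12 and LGR4 -0.63 in place of -0.04, where the remaining GLUL and LGR4 probe sets were below the floor. TBX3 was 0.83 in MAS5 alone and 0.78 with the pseudocount, in place of 0.26. In MAS5 alone AXIN1 was -0.61 in place of -0.19, and NOTUM -0.36 in place of 0.00. Medians near 0 moved across it: the receptors' was 0.05 with the median over probe sets and 0.06 without _x_at and _s_at ones, and the targets' was 0.11 with the stricter floor, 0.01 with the median over probe sets, 0.00 without _x_at and _s_at ones, and 0.04 with DKK1 and LEF1 counted among them (DKK4, below the floor, did not enter). The inhibitors without DKK1, a choice made after seeing the data, had a median of 0.36, which is the value of SFRP2 and no sign of stability. No paired analysis was possible because each population had 1 array in each processing. Without replicates no array could be left out.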

Other observations

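LGR5, the R-spondin receptor of stem cells in many epithelia, was described by a probe set that was below the floor, at RMA values of 4.57 in CD133+ against 3.99 in CD133-. Its other probe set had a lower mean but 5.20 in CD133+ and 3.29 in CD133-, with MAS5 intensities of 187.7 and 49.2. LGR5 was thus counted as higher with the median over probe sets above the floor, at 1.91. That probe set passed the floor only through its CD133+ value, which lay just over the column median of 5.16. Under this setting 277 of 13123 genes were counted as higher, which is 2.11%. SLC1A2, a glutamate transporter expressed beside GLUL in mouse liver, differed by 0.45 in the probe set used, which ends in _x_at. Another, which reached the floor in CD133+ alone at 5.57 against 4.37 in CD133-, differed by 1.20 in RMA and 1.63 in MAS5. SOX4, a transcription factor listed among the Wnt targets, had 4 probe sets above the floor, with RMA differences of 0.56, 0.76, 0.61 and 0.47. CCND1, the cyclin D1 gene, differed by 0.42 and 0.15 in its probe sets. These 4 genes were chosen after their values were seen.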
